A study of Mus musculus with 39 samples.

Results

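In 7438 mouse mammary cells, 402 of the 11982 sites in the list of estrogen receptor (ER) sites named for both hormones carried ER and the glucocorticoid receptor (GR) together, although neither receptor was listed there with its own hormone alone. They are called joint-only sites below. A joint-only site was a site of the ER list named Both that overlapped a site of the GR list named Both by at least 1 bp and overlapped no site of the ER list with estradiol and no site of the GR list with dexamethasone. The 402 sites made up 3.36% of the ER list and met 402 distinct GR sites.

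The study mapped both receptors by ChIP-seq, in which chromatin fragments bound by a protein are recovered with an antibody and sequenced. Cells received 100 nM dexamethasone and 100 nM estradiol together (Dex+E2), estradiol alone (E2), dexamethasone alone (Dex) or no hormone (untreated), with hormone given for 30 min. All groups expressed GFP-GR and Cherry-ER, introduced fusion proteins under tetracycline-regulated promoters. A second set of cells, 7438 Afos, carried Afos under the same kind of promoter in addition. The labels do not explain the name; elsewhere A-Fos denotes an engineered Fos variant that blocks DNA binding by AP-1. Single lists from 8 samples of 7438, 1 for each receptor and treatment, and 16 lists of 7438 Afos, 2 for each, were used out of 39 samples. The other 15 samples were not analysed here. The lists held between 35 and 14160 sites, and the sequencing depth behind them is unknown.

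The names of 4 lists of 7438 go against the sample labels. The lists named Both are filed under samples labelled untreated, and the lists named unt are filed under samples labelled Dex+E2, for both receptors. The joint-only sites were chosen by the names of the lists. With the lists labelled Dex+E2 in place of those named Both, 0 sites met the same rule. The 4 lists that chose the sites, and therefore their strength in those lists, are described without tests. The 7438 Afos lists took no part in the choice, but contrasts there that match the rule can restate it.

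GR and ER are hormone-activated transcription factors of the nuclear receptor family. Dexamethasone is a synthetic ligand of GR and estradiol the natural ligand of ER, and each liganded receptor can bind its own response elements or join other factors at DNA. Binding of one receptor can open chromatin for another, which is known as assisted loading and has been described for these receptors in mouse mammary cells. AP-1, a dimer of Fos and Jun proteins, often occupies the same regulatory regions as steroid receptors.

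Joint-only sites were of middle strength for ER and weak for GR. The highest tag density of a site is the signal value that the authors gave and was ranked within its own list. In the ER list named Both, joint-only sites had a median density of 22.3 (10th to 90th percentile 12.9 to 37.4, range 10.2 to 101), at percentile 61.6 of the list. The GR sites that they met had a median density of 13.0 (10.5 to 21.3, range 10.0 to 128), at percentile 25.4. The ER percentile was above 50 at 256 sites (63.7%) and the GR percentile at 69 (17.2%). The ER rank exceeded the GR rank at 358 of the 402 sites (89.1%). Across the 402 sites the densities of the 2 receptors went together in part, with a Pearson r of 0.471 on log2 values and a Spearman rho of 0.488. These points are sites of the same 2 libraries and are not independent replicates.

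**Figure D1:**
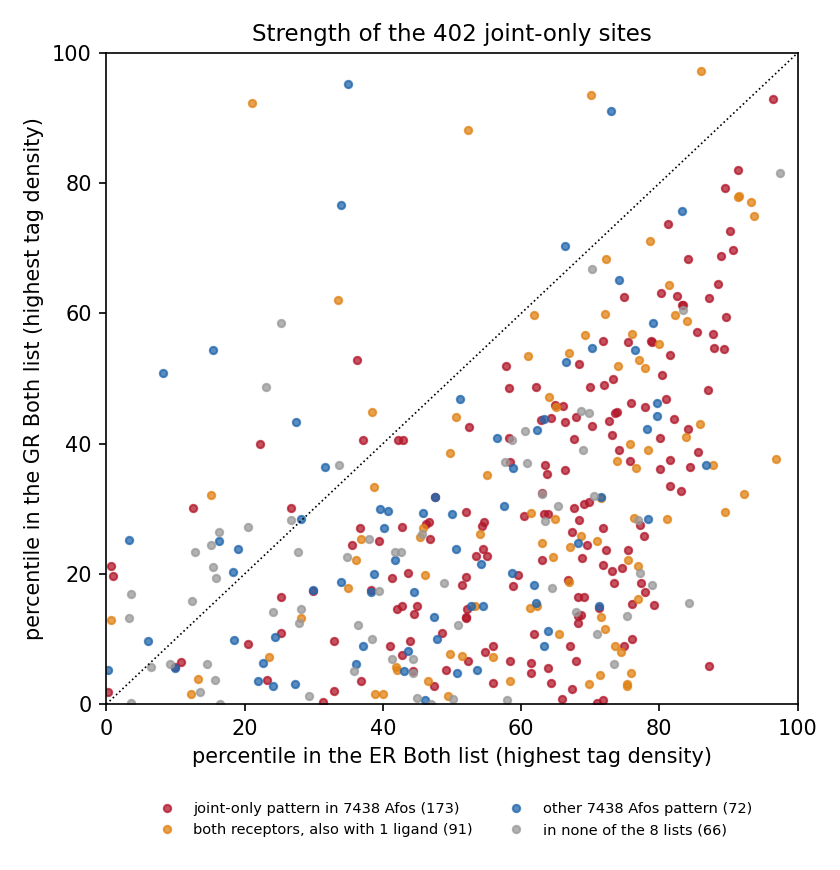
Percentile of the highest tag density of each joint-only site in the ER list named Both (x axis) and of its overlapping site in the GR list named Both (y axis), with 1 point a site, coloured by what was listed at the site in 7438 Afos. Most points (358 of 402) lie below the dotted line of equal rank, so their ER rank is above their GR rank.

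A further 3 classes of sites in the same ER list served for comparison. At 1810 sites ER was listed with both hormones and not with E2, and GR was listed with both hormones and already with Dex alone. At 1188 sites ER was listed with both hormones and with E2 alone, and GR was listed with both hormones and not with Dex alone. At 3387 sites ER was listed with both hormones only and GR in neither list. These classes are called ER gained at Dex GR sites, GR gained at E2 ER sites and ER gained without GR. In the ER list named Both the median density was 16.8 at ER gained at Dex GR sites, 54.3 at GR gained at E2 ER sites and 13.3 at ER gained without GR. The GR sites had a median density of 31.7 at ER gained at Dex GR sites and 15.6 at GR gained at E2 ER sites. Joint-only sites therefore stood above both classes of gained ER sites in ER density, and their GR density was the lowest of the 3 classes that carried GR.

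The 2 receptors were called at nearly the same position. The centres of the ER and GR sites lay a median of 14 bp apart, and 366 of the 402 pairs (91.0%) lay within 50 bp, where each site was 150 bp wide. The joint-only sites belonged to 401 parent regions of the authors' list, and 32 of them shared a parent region with an ER site that was not joint-only. Another site of the same ER list lay within 10000 bp of 200 joint-only sites (49.8%), against 48.0% of all 11982 sites. They were spread over 20 chromosomes, with 42 sites (10.4%) on chromosome 11, which held 8.64% of the whole ER list. Chromosome 14 held 16 joint-only sites, 5.08% of its ER sites, and chromosome 3 held 12, 2.33% of its ER sites.

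The other 4 lists of 7438 held few sites of the ER list named Both, joint-only or not. The ER list with Dex, of 10149 sites, held 4 of the 402 sites (0.995%, exact binomial 95% interval 0.272 to 2.53%), against 1.22% of all sites of the ER list. This interval holds the share of all sites. The other 3 lists were short. The GR list with E2 (326 sites) held 1 joint-only site (0.249%), against 1.83% of all sites. The ER list named unt (373 sites) held 1, against 1.71%, and the GR list named unt (143 sites) held 0, against 0.718%. These are single lists with no replicate, and the intervals here and below cover counting error only.

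In 7438 Afos cells, 264 of the 402 joint-only sites were listed for both receptors with Dex+E2 in at least 1 list each, in lists of very different length. ER was listed at 265 of 402 sites in replicate 1 (65.9%, interval 61.1 to 70.5%) and at 116 in replicate 2 (28.9%, 24.5 to 33.6%), against 41.3% and 20.2% of all sites of the ER list. The second replicate was the shortest of the 4 ER lists with E2 or Dex+E2, at 2564 sites. GR was listed at 329 sites in replicate 1 (81.8%, 77.7 to 85.5%) and at 264 in replicate 2 (65.7%, 60.8 to 70.3%), against 46.2% and 35.6% of all sites. At least 1 of the 2 lists held 266 of the sites for ER (66.2%) and 333 for GR (82.8%), against 41.8% and 48.6% of all sites. Both lists held 115 sites for ER (28.6%) and 260 for GR (64.7%), against 19.7% and 33.3% of all sites. The 264 sites with both receptors made up 65.7%, against 32.8% of all sites. With each list cut to its 2564 strongest sites, at least 1 list held 43.5% of the joint-only sites for ER and 28.6% for GR. GR was listed at 264 of the 266 sites with ER (99.2%, 97.3 to 99.9%), against 78.4% of all sites of the ER list with ER in these cells. ER was listed at 264 of the 333 sites with GR (79.3%, 74.5 to 83.5%), against 67.5%. Thus GR was nearly always listed where ER returned, while 69 sites showed GR without ER under Dex+E2. The GR lists with Dex+E2 held 14160 and 10309 sites and the ER lists 5905 and 2564. Whether list length sets this order was not tested. Joint-only sites were also chosen for a GR site with both hormones in 7438, so the 99.2% in part restates that choice. A high share of GR where ER was listed was not particular to joint-only sites. GR was listed at 646 of 647 sites with ER at ER gained at Dex GR sites. The counts were 870 of 944 at GR gained at E2 ER sites and 759 of 994 at ER gained without GR.

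With 1 ligand alone the same sites were listed far less often in 7438 Afos. The sites were chosen in 7438 for absence from the lists with 1 ligand. The differences below, with their p-values, therefore in part restate that choice in other cells. ER with E2 was listed at 45 sites in replicate 1 (11.2%, 8.28 to 14.7%) and at 24 in replicate 2 (5.97%, 3.86 to 8.75%), against 38.3% and 32.9% of all sites. The mean share was 47.4 ± 26.2% with Dex+E2 and 8.58 ± 3.69% with E2 (SD, n = 2 lists each), a difference of 38.8 percentage points (two-sided exact permutation test, p = 0.333). GR with Dex was listed at 60 sites in replicate 1 (14.9%, 11.6 to 18.8%) and at 22 in replicate 2 (5.47%, 3.46 to 8.17%), against 20.2% and 14.6% of all sites. The mean share was 73.8 ± 11.4% with Dex+E2 and 10.2 ± 6.68% with Dex, a difference of 63.6 points (two-sided exact permutation test over 2 and 2 lists, p = 0.333). At least 1 E2 list held 52 sites for ER (12.9%, against 40.2% of all sites) and both held 17 (4.23%, against 31.0%). At least 1 Dex list held 61 sites for GR (15.2%, against 20.3%) and both held 21 (5.22%, against 14.5%). The GR lists with Dex+E2 held 14160 and 10309 sites and those with Dex 8873 and 5136. With all lists cut to 2564 sites the GR difference was 16.9 points, and the ER difference 31.8. Both Dex+E2 lists lay above both lists with 1 ligand for each receptor as deposited, and 0.333 is the smallest p that 2 lists against 2 can give. These p-values reflect only the order and number of the deposited lists. The labels do not say that the replicates came from separate cultures.

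The 7438 Afos lists of a receptor without its ligand held few sites of the ER list named Both of any class. In 7438 Afos, ER was listed at 0 of 402 sites in both Dex lists (0.108% and 0.0334% of all sites) and in both untreated lists (0% and 0.0334% of all sites). GR was listed with E2 at 1 and 0 sites in the 2 replicates, against 3.89% and 0.985% of all sites, and in untreated cells at 0 and 1 sites, against 0.384% and 0.985%. At least 1 ER Dex list held 0.134% of all sites and both held 0.00835%. At least 1 and both of the GR lists held 3.91% and 0.960% of all sites with E2, and 1.05% and 0.317% untreated; at least 1 held 1 joint-only site for each treatment, and both held 0. These lists were short, with 35 to 490 sites, and a site missing from a list may lie under its threshold.

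**Figure D2:**
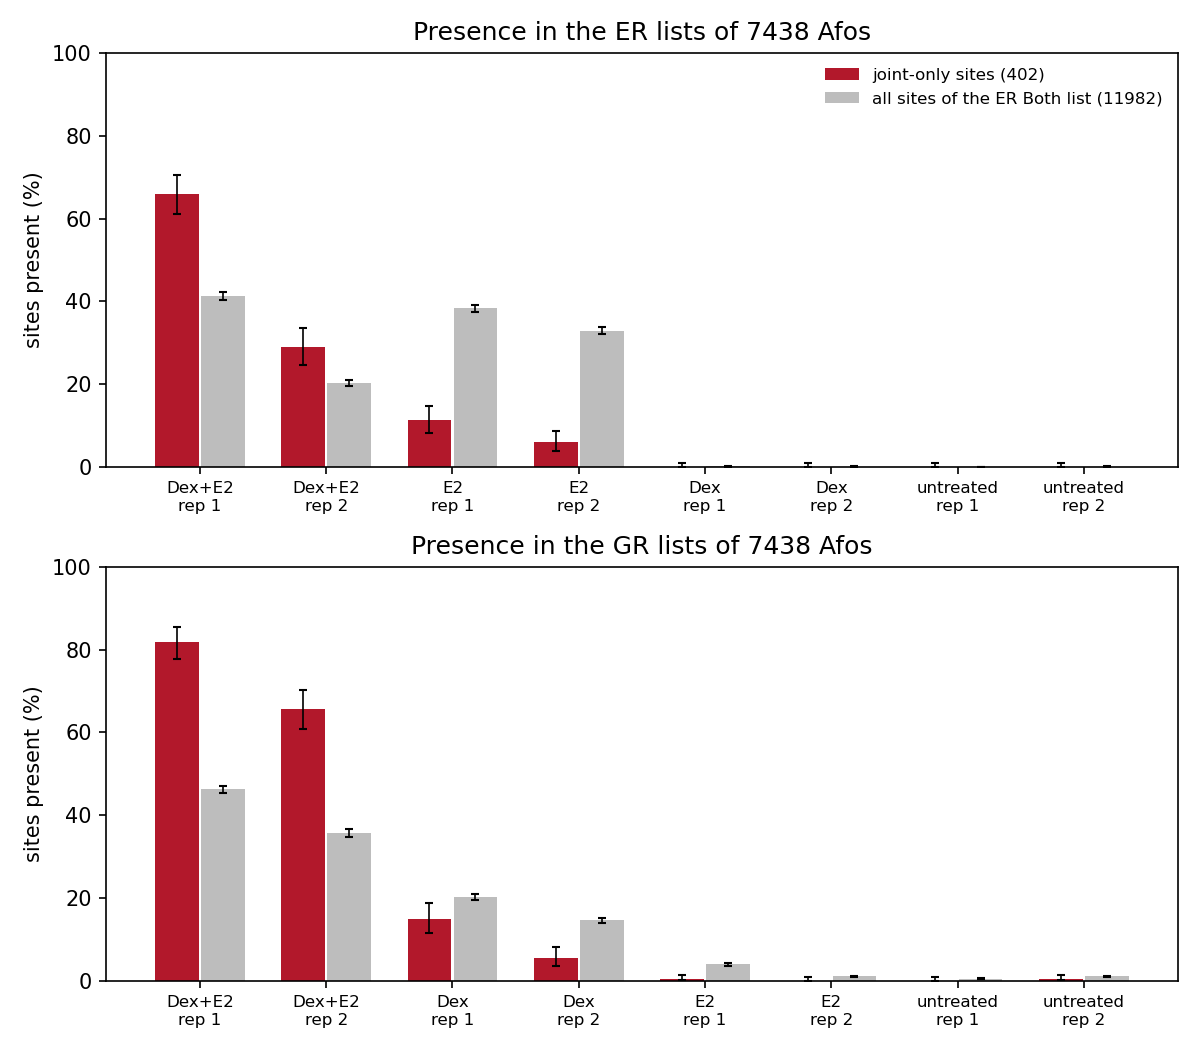
Share of the 402 joint-only sites (red) and of all 11982 sites of the ER list named Both (grey) that overlapped a site of each 7438 Afos list, for ER above and GR below, with exact binomial 95% intervals. Joint-only sites exceed the whole list in the 4 Dex+E2 lists (65.9% and 28.9% for ER, 81.8% and 65.7% for GR) and lie below it in the lists with 1 ligand. The contrasts for GR with Dex+E2, and for each receptor with its own ligand alone, in part restate the choice of sites in 7438.

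The pattern of both receptors only under both hormones returned in 7438 Afos at 173 of the 402 sites (43.0%, interval 38.1 to 48.0%). Here both receptors had to be listed with Dex+E2 in at least 1 list each, with no ER in either E2 list and no GR in either Dex list. The share was 6.66% among all sites of the ER list. It was 2.15% (1.54 to 2.93%) at ER gained at Dex GR sites, 4.04% (2.99 to 5.32%) at GR gained at E2 ER sites and 13.3% (12.1 to 14.4%) at ER gained without GR. Judged in same-numbered lists, the share was 44.3% in replicate 1 and 21.6% in replicate 2 for joint-only sites, or 33.0 ± 16% (SD, n = 2). The same shares were 2.32% and 2.27% for ER gained at Dex GR sites, 4.71% and 2.95% for GR gained at E2 ER sites, 13.6% and 2.18% for ER gained without GR, and 6.92% and 2.30% for all sites. Both values of the joint-only sites lay above both values of every other class, a comparison of 2 with 2 values that cannot give a p under 0.333. Each of the 3 comparison classes was chosen to lack the pattern in 7438. Their lower shares therefore in part restate the choice in other cells.

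The pattern held in each of the 2 replicates at 53 joint-only sites (13.2%, 10.0 to 16.9%), against 1.29% of all sites. All 4 Dex+E2 lists held 111 of the joint-only sites (27.6%), against 14.3% of all sites.

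**Figure D3:**
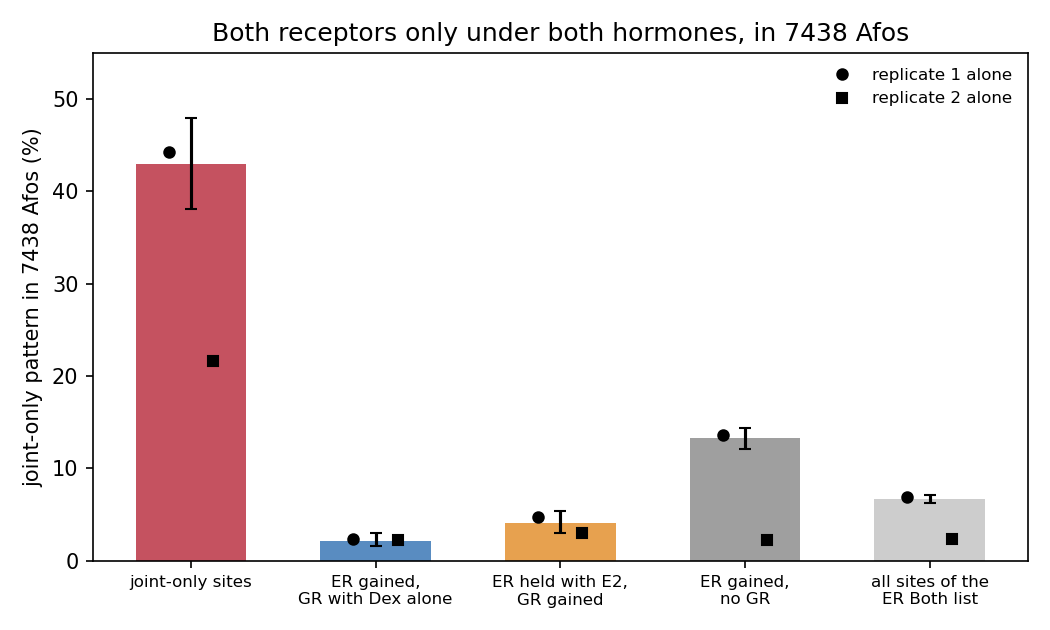
Share of sites with both receptors only under both hormones in 7438 Afos (y axis), for joint-only sites, the 3 comparison classes and all sites of the ER list named Both. Bars use at least 1 of 2 lists, with exact binomial 95% intervals, and points use replicate 1 or 2 alone. The bar of the joint-only sites stands at 43.0% and the next at 13.3%. The 3 comparison classes lacked the pattern in 7438 by choice.

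The remaining joint-only sites fell into a few other patterns in 7438 Afos. Both receptors were listed with Dex+E2 and ER also with E2 at 40 sites (9.95%), against 16.4% of all sites of the ER list. Both were listed with Dex+E2 and GR also with Dex at 42 sites (10.4%), against 6.54% of all sites. Another 9 sites (2.24%, against 3.17%) had ER with E2 and GR with Dex as well. GR was listed with Dex+E2 and nothing else at 57 sites (14.2%), against 4.82% of all sites. GR was listed with Dex+E2 and with Dex, without ER, at 9 sites (2.24%), against 9.92%. ER with E2 and GR with Dex+E2, without ER there, were listed at 3 sites (0.746%), against 0.634%. Another 2 sites had ER with Dex+E2 only and 1 had GR with Dex only, against 1.08% and 0.242% of all sites. None of the 8 lists of a receptor with its ligand held 66 sites (16.4%), against 30.5% of all sites. These 66 sites were weaker in the 7438 lists, with a median ER density of 16.3 and a GR density of 12.1, against 24.6 and 13.4 at the 173 sites with the returning pattern.

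The share with the returning pattern was larger at stronger ER sites. Over 5 equal classes of the whole ER list by density, from the weakest to the strongest, it was 17.1% of 35, 28.3% of 60, 43.9% of 98, 47.4% of 156 and 62.3% of 53 joint-only sites. The intervals of neighbouring density classes overlapped. At ER gained without GR it was 6.92% of 1388, 13.0% of 1068, 21.4% of 644, 27.4% of 259 and 17.9% of 28 sites. In each density class the joint-only sites had the highest share of the 4 classes. In the weakest one their interval (6.56 to 33.6%) overlapped those of ER gained without GR (5.64 to 8.38%) and of GR gained at E2 ER sites (0 to 30.8%, 10 sites). In the next it (17.5 to 41.4%) overlapped that of GR gained at E2 ER sites (0 to 26.5%, 12 sites).

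**Figure D4:**
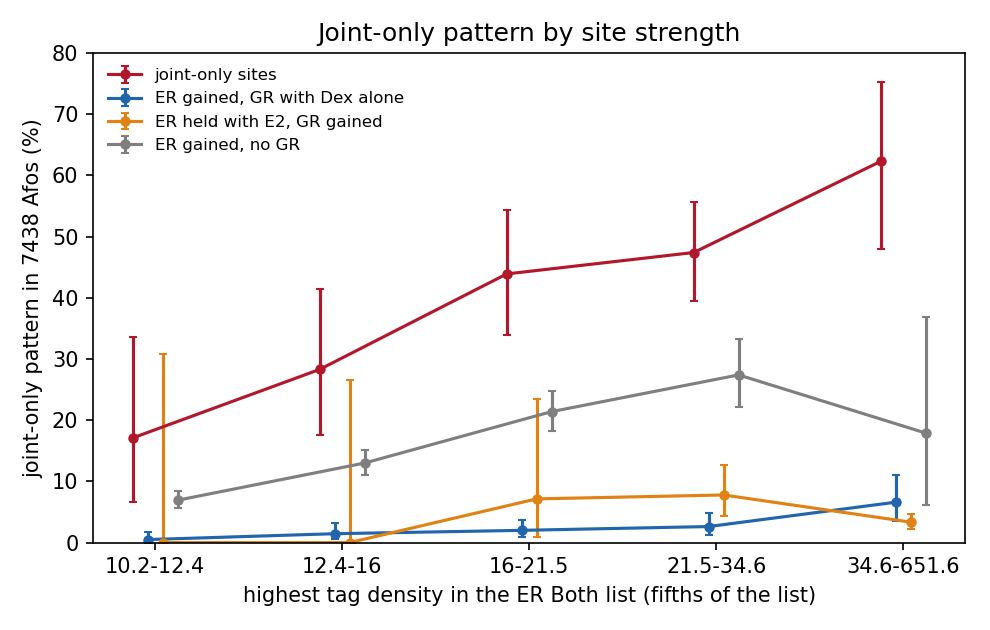
Share of sites with both receptors only under both hormones in 7438 Afos (y axis) by 5 equal classes of the highest tag density in the ER list named Both (x axis), for joint-only sites and 3 other classes, with exact binomial 95% intervals. Joint-only sites run between 17.1% and 62.3%, above the other classes throughout. The 3 other classes lacked the pattern in 7438 by choice.

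Among sites that carried both receptors with Dex+E2 in 7438 Afos, joint-only sites and ER gained without GR had overlapping shares that were in no single-ligand list. The pattern was there at 173 of 264 such joint-only sites (65.5%, interval 59.5 to 71.2%), against 20.3% of all 3930 such sites. It was there at 39 of 646 sites (6.04%) of ER gained at Dex GR sites and at 48 of 870 (5.52%) of GR gained at E2 ER sites. At ER gained without GR it was there at 449 of 759 sites (59.2%, 55.6 to 62.7%), an interval that overlaps that of the joint-only sites. These 759 sites had no listed GR in 7438 with both hormones and a listed GR in 7438 Afos.

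Single lists of 7438 Afos set the classes apart in different ways. ER with Dex+E2 was listed at 65.9% and 28.9% of joint-only sites, against 35.0% and 16.7% at ER gained at Dex GR sites, 79.3% and 62.2% at GR gained at E2 ER sites, and 29.1% and 6.55% at ER gained without GR. GR with Dex+E2 was listed at 81.8% and 65.7% of joint-only sites, against 83.6% and 87.2% at ER gained at Dex GR sites, 75.7% and 59.3% at GR gained at E2 ER sites, and 30.5% and 13.6% at ER gained without GR. GR with Dex was listed at 14.9% and 5.47% of joint-only sites, against 80.1% and 65.1% at ER gained at Dex GR sites, 5.22% and 2.19% at GR gained at E2 ER sites, and 3.51% and 1.51% at ER gained without GR. ER with E2 was listed at 11.2% and 5.97% of joint-only sites, against 2.54% and 1.77% at ER gained at Dex GR sites, 79.5% and 75.9% at GR gained at E2 ER sites, and 19.1% and 11.9% at ER gained without GR. The classes were defined by lists of 7438, so that some contrasts restate the choice in other cells. These are GR with Dex against ER gained at Dex GR sites, and ER with E2 against GR gained at E2 ER sites. GR with Dex+E2 against ER gained without GR is another.

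Averaged over the 8 lists of a receptor with its ligand, joint-only sites minus ER gained without GR gave 20.5 ± 24.1 percentage points (SD, n = 8 lists), positive in 6 of 8 lists and in 4 of 4 with Dex+E2. The two-sided exact sign-flip permutation test gave p = 0.0625, and 0.188 after Benjamini-Hochberg adjustment over 3 classes, where 8 lists can give a p of 0.00781. The difference was 10.0 points within 5 classes of site strength and 11 points with lists cut to 2564 sites. Over the 4 Dex+E2 lists it was 40.6 points (exact permutation test, p = 0.125, the smallest that 4 lists can give). The largest differences, 51.3 and 52.0 points, came from the GR lists with Dex+E2. There the definition sets the contrast, since ER gained without GR was chosen for having no GR site with both hormones. These means and their p-values are therefore not read as a result. In the ER lists the differences were 36.9 and 22.3 points with Dex+E2, and -7.88 and -5.96 with E2. Against ER gained at Dex GR sites the mean over 8 lists was -11.5 ± 34.6 points (exact permutation test, adjusted p = 0.383), and against GR gained at E2 ER sites it was -19.9 ± 33.5 points (adjusted p = 0.270). The lists with Dex for GR and with E2 for ER carry most of these negative means, and there the class definitions set the contrast, so that neither mean nor its p is read as a result. Over the 4 Dex+E2 lists the difference from ER gained at Dex GR sites was 4.92 points. From GR gained at E2 ER sites it was -8.56 points over those 4 lists, but 6.37 points within 5 classes of site strength and also 6.37 over the 4 GR lists.

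Where they were present with Dex+E2 in 7438 Afos, the rank of joint-only sites against all sites of the ER list named Both differed between the replicates. Their median percentile was 63.3 in ER replicate 1 (265 sites, median density 18.3) and 42.3 in ER replicate 2 (116 sites, 10.3). In the GR lists it was 73.8 in replicate 1 (329 sites, 24.9) and 56.2 in replicate 2 (264 sites, 17.0). All sites of the ER list named Both that were present had median percentiles of 59.0 and 53.5 in the ER lists and 66.4 and 64.9 in the GR lists. Joint-only sites were thus above them in both replicate 1 lists and below them in both replicate 2 lists. The corresponding GR sites of 7438 stood at percentile 25.4 of a list of 9503 sites, a length different from that of the 7438 Afos lists. The median percentiles at ER gained at Dex GR sites were 60.0 and 48.2 for ER, and 86.7 and 82.1 for GR. Those at ER gained without GR were 37.1 and 26.0 for ER, and 45.3 and 31.0 for GR. At GR gained at E2 ER sites they were 83.1 and 70.8 for ER, and 74.1 and 56.4 for GR. The few joint-only sites listed with E2 ranked low among ER sites, at percentiles 22.2 (45 sites) and 23.4 (24 sites). Those listed with Dex stood at percentiles 49.2 (60 sites) and 30.7 (22 sites) of the GR lists.

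**Figure D5:**
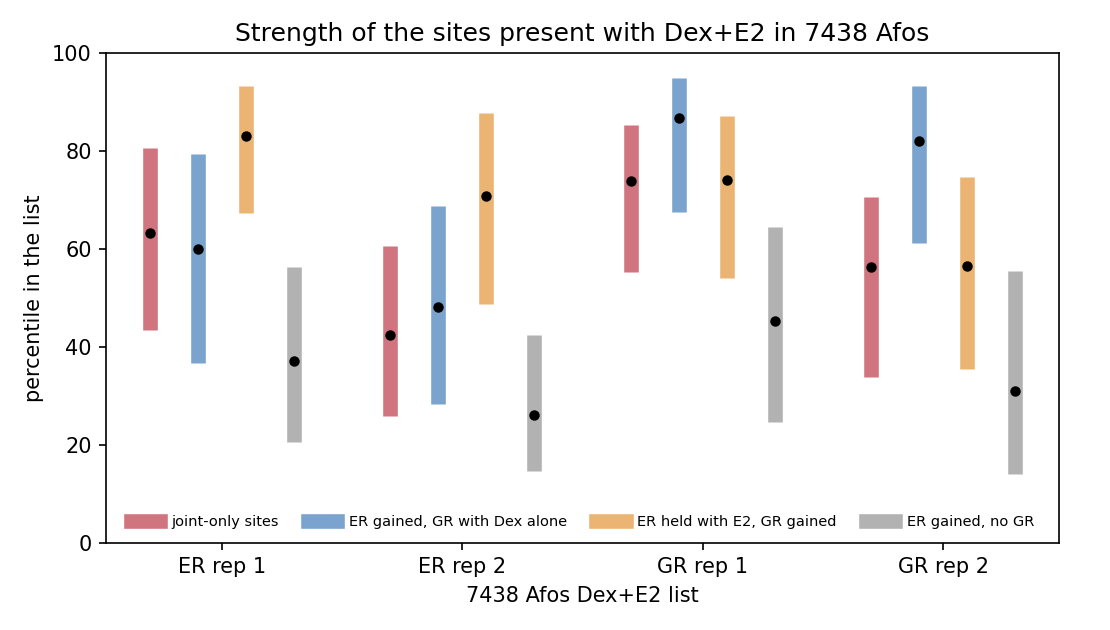
Percentile of the highest tag density within each 7438 Afos Dex+E2 list (y axis) for the sites present there, by class; bars span the middle quartiles and points are medians. Joint-only sites have medians of 63.3 and 42.3 in the ER lists and 73.8 and 56.2 in the GR lists.

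The same rule applied inside 7438 Afos gave 1159 sites in replicate 1, 19.6% of its 5905 ER sites, and 302 in replicate 2, 11.8% of 2564. Of these, 172 (14.8%) and 84 (27.8%) overlapped a joint-only site of 7438. The ER list named Both held 785 (67.7%) and 267 (88.4%) of them, and the GR list named Both held 325 (28.0%) and 187 (61.9%). Within 7438 Afos, 168 of the 1159 sites (14.5%) had the pattern in replicate 2 as well, and 169 of the 302 sites (56.0%) had it in replicate 1. Between replicates 14.5% was thus shared of the first list, against 14.8% that met a joint-only site of 7438, and 56.0% of the second, against 27.8%. These shares have different ceilings and do not rank the agreement. The replicates held 1159 and 302 such sites, and 7438 held 402 narrower ones.

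The joint-only site that ranked highest across the 4 Dex+E2 lists of 7438 Afos lay on chromosome 11 (mm9, 95547553 to 95547703). In 7438 its highest tag density was 56.1 for ER and 38.5 for GR. In 7438 Afos with Dex+E2 it had 69.8 and 32.7 for ER and 105 and 61.7 for GR, and it was listed in neither E2 list for ER and in neither Dex list for GR. The next lay on chromosome 10 (80407293 to 80407443), with 87.1 for ER and 71.1 for GR in 7438. It had 66.8 and 25.1 for ER and 121 and 62.4 for GR in 7438 Afos with Dex+E2, again with no entry for 1 ligand. Its nearest ER site with E2 and GR site with Dex in 7438 lay 3203 and 3386 bp away.

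A further 3 sites had the pattern in all 4 Dex+E2 lists at high rank. On chromosome 12 (56574687 to 56574837), 573 bp from a GR site with Dex in 7438, ER had 56.4 and 19.1 and GR 65.7 and 29.0. On chromosome 15 (96526669 to 96526819), where the 7438 densities were 23.0 for ER and 13.7 for GR, ER had 41.1 and 15 and GR 65.4 and 32.9. On chromosome 19 (44012970 to 44013120), 255 bp from such a site, ER had 41.1 and 17.4 and GR 44.7 and 24.9. The scaling of densities between lists is not stated, so values of different lists are not compared.

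Of the 8 strongest joint-only sites by ER density in 7438, 2 kept the pattern, against 33 of 53 (62.3%) in the strongest density class. An ER site with E2 or a GR site with Dex lay within 500 bp of 3 of these 8. The strongest, on chromosome 11 (3061125 to 3061275), had 101 for ER and 38 for GR in 7438 and was in none of the 16 lists of 7438 Afos. The next, on chromosome 5 (125627778 to 125627928), had 91.7 for ER and 15.4 for GR, and an ER site with E2 lay 181 bp away in 7438. In 7438 Afos it had 26.8 and 14.6 for ER with Dex+E2, and 71.7 and 49.9 with E2 alone. On chromosome 7 (19812178 to 19812328) the ER density was 65.4 in 7438, and in replicate 1 of 7438 Afos it was 42.5 with Dex+E2 and 12.2 with E2. On chromosome 2 (18884398 to 18884548), 191 bp from a GR site with Dex, GR in 7438 Afos had 76.9 and 49.6 with Dex+E2, and 51.3 and 26.1 with Dex. At this place and on chromosome 5 the wider 7438 Afos sites also reach the nearby site with 1 ligand. Their highest density may therefore lie there.

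Short distances to a single-ligand site marked many of the strongest GR sites. The strongest, on chromosome 4 (149353390 to 149353540), had 128 for GR and 43.4 for ER in 7438, and a GR site with Dex lay 264 bp away. In 7438 Afos its GR density was 85.5 and 100.4 with Dex+E2, and 115 and 74.1 with Dex. On chromosome 9 (120051749 to 120051899), 365 bp from a GR site with Dex, GR had 181 and 101 with Dex+E2, and 167 and 96.2 with Dex. The 7438 Afos sites at these 2 places are wide, at 149352793 to 149354911 and 120051055 to 120053045 in Dex replicate 1. They also reach the nearby GR site with Dex, so their highest density may lie there. Of the 5 strongest by GR, 1 kept the pattern in 7438 Afos.

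An ER site with E2 or a GR site with Dex lay within 500 bp of 50 joint-only sites (12.4%), and within 500 bp of 11 of the 20 strongest by GR density, a count chosen after the values were seen. The pattern returned in 7438 Afos at 9 of these 50 sites (18%) and at 164 of the other 352 (46.6%). GR with Dex was listed in 7438 Afos at 20 of the 36 sites with a GR Dex site that close (55.6%), and at 40 of the 352 sites with neither (11.4%). A wide 7438 Afos site may reach both a joint-only site and that neighbour, so part of the 55.6% may belong to the neighbour.

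At the lower edge of the list, the 3 weakest joint-only sites had ER densities of 10.2, on chromosome 12 (103042340 to 103042490), chromosome 8 (49189307 to 49189457) and chromosome 15 (96609901 to 96610051). Their GR densities were 10.1, 10.5 and 12.4. The pattern returned at 2 of the 3. Just outside the rule, a site on chromosome 11 (117022155 to 117022305) with an ER density of 35.7 was left out by an E2 site of density 10.0, the weakest in that list. A site on chromosome 2 (168482322 to 168482472) with an ER density of 27.7 was left out by a Dex GR site of density 10.0.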

How the data were processed

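ChIP-seq site lists of 24 samples were used. Per the submitters' processing notes, the build was mouse mm9 and CASAVA 1.8 was used. Not given in the sources used here were the aligner, peak caller, control, threshold and any pooling of replicates. Per the file headers, each deposited site carries its highest tag density, which the authors gave as a signal, plus a score named z-score. Density scaling is not stated, so densities were ranked only within a list. In 7438 all sites are 150 bp wide with density and z-score of at least 10 and 15; in 7438 Afos sites are 251 bp or wider, which raises overlap with them.

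Presence meant an overlap of at least 1 bp, and shares carry exact (Clopper-Pearson) 95% intervals. Treatments were compared over lists by two-sided exact permutation tests, and classes by exact sign-flip tests over 8 lists, Benjamini-Hochberg adjusted over 3. Sites are not replicates and were not tested against each other. Functions were tested on simulated lists. Members and classes were chosen with earlier results of these data known. Named sites are the 8 highest by ER and 5 by GR density in 7438, the 5 highest by mean percentile over the 4 Dex+E2 lists of 7438 Afos among those without a single-ligand entry, and the 3 lowest by ER density; values are given for some. Coordinates are as deposited. No sequences, motifs or genes are given, since no mm9 genome was used here. Python 3.11.15, NumPy 2.4.6, pandas 2.3.3, SciPy 1.17.1 and matplotlib 3.10.9 were used.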

Additional observations from a re-analysis of the deposited data

How the results depend on the processing

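The number of joint-only sites was 402. It was 61 when both lists named Both were limited to sites at or above their median density, and 0 with the lists labelled Dex+E2 in their place. It was 454 with an overlap of at least 75 bp, 352 with no single-ligand site within 500 bp and 275 with lists of equal length. Presence in both lists in place of 1 gave 28.6% for ER with Dex+E2, 4.23% for ER with E2, 64.7% for GR with Dex+E2, 5.22% for GR with Dex and 13.2% for the joint-only pattern. With 7438 Afos lists cut to 2564 sites, ER with Dex+E2 was 43.5%, ER with E2 fell to 1.99%, GR with Dex+E2 to 28.6%, GR with Dex to 3.73% and the pattern to 21.6%. ER with E2 was 16.9% with sites within 500 bp, 4.23% with the lower limits of the 7438 lists and 17.4% at the stronger joint-only sites. Leaving out a replicate gave 28.9 to 65.9% for ER with Dex+E2, 5.97 to 11.2% for ER with E2, 65.7 to 81.8% for GR with Dex+E2, 5.47 to 14.9% for GR with Dex and 21.6 to 44.3% for the pattern. The equal-length cut, the lower limits and the demand for both lists lower the share of 1 receptor and treatment by construction. The demand for both lists also lowers the pattern, and the median density the number of joint-only sites. The equal-length cut and the lower limits shorten the excluding lists too, so the number of joint-only sites or the pattern can rise or fall. With the lower limits the pattern was 47.0%, against 43.0%. The overlap of 75 bp was also asked of the excluding sites, so fewer sites were excluded. A window of 500 bp can only raise presence in a list or lower the number of joint-only sites. Leaving out a replicate cannot raise the share of 1 receptor and treatment present in at least 1 list. The cause was not tested for the others.

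The differences between Dex+E2 and 1 ligand stayed positive in the alternatives run, at 22.9 to 54.7 points for ER and 16.9 to 66.9 for GR, where the 16.9 came from lists cut to 2564 sites. With same-numbered lists as a replicate block they were 38.8 and 63.6 points (exact sign-flip test, p = 0.5, the smallest for 2 pairs). The replicate differences of the 402 sites correlated at -0.0839 for ER and -0.129 for GR. Most of these sites were absent from the lists with 1 ligand, so this cannot tell whether the numbers pair the lists. Crossing the GR pairs, added after the data were examined, leaves the mean GR difference as it is by construction. The crossed pair values were 76.4 and 50.7 in place of 66.9 and 60.2 points.

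The difference from ER gained at Dex GR sites turned to 4.92 points over the 4 Dex+E2 lists and 14.0 over the 4 ER lists. That from GR gained at E2 ER sites turned to 6.37 over the 4 GR lists and 6.37 within 5 classes of site strength. Settings of 4 lists, which include those without a replicate, cannot give a p under 0.125, so their tests say nothing of stability. At 2 lists a group no treatment test can pass, and unlisted sites may lie under a threshold.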
